A study of Eriocheir sinensis with 9 samples.

Results

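The crab eyestalk holds the eye, its visual ganglia, and a neurosecretory centre made of the X-organ and sinus gland, whose peptide hormones act on moulting, blood sugar and pigment. A crab cannot regulate its body temperature by its own heat, so warmer water warms the nervous tissue of the eyestalk directly, and transcript levels there can settle at another level or keep moving as the temperature goes up. A gene often gives several isoforms, transcripts that differ in their exons or ends, and the level of one isoform can change without that of the gene. The isoforms described here were low at 22 °C, higher at 27 °C and at about the same level at 32 °C. They were chosen by these measured values, so the higher level at 27 and 32 °C is a description and not a finding, and no test of it is given.

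The choice used FPKM, the fragments of a transcript scaled to its length and to the mapped fragments of the library. An isoform qualified when its mean log2(FPKM + 1) was at least 1.5 higher at 27 than at 22 °C and its mean at 32 °C lay less than 0.5 from that at 27 °C. All 6 values at 27 and 32 °C also had to lie above every value at 22 °C, and at least 3 of the 9 libraries had to reach 1 FPKM. Of 267789 isoforms listed, 101114 passed the filter on low values and 388 met all conditions. The 200 with the largest difference between 27 and 22 °C were kept, and these are the members. The table gives isoforms by number without gene names, and 0 numbers matched the gene table of assembly ASM2467909v1, so the members are described by level and pattern, and 2 of them by identifier. No sequence, function or eyestalk marker could be attached to any of them.

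The study compared the eyestalk transcriptome of the Chinese mitten crab, Eriocheir sinensis, at normal and high water temperature. Each of the 3 groups here, 22, 27 and 32 °C, has 3 libraries of wild-type crabs between moults. All the animals had first been held at 25 °C, and the treatment field of the labels reads untreated throughout, so the temperature was read from the library titles. The protocol gives 16 crabs to a replicate without saying how many went into a library or for how long they were warmed, and 7, 12 and 17 °C, which it also lists, are not analysed here.

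The replicates may therefore be partly technical, and in whole tissue fewer cells of a type and less RNA per cell cannot be told apart. The series design text speaks of muscle and of another platform, while the sample labels say eyestalk. Read totals are unknown. Summed FPKM ran from 1704917 to 2227273 per library. Replicate 1 at 32 °C stood apart from its group: over the isoforms tested its log2(FPKM + 1) values correlated on average at 0.757 with the 27 °C libraries and at 0.734 with the other 32 °C libraries. The other 8 libraries correlated best with their own temperature.

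The members were a set of mostly modest isoforms with a few abundant ones among them. Their median group mean was 1.39 FPKM at 22 °C, 11.5 FPKM at 27 °C and 11.7 FPKM at 32 °C, where the medians over all 101114 isoforms tested were 2.28, 2.46 and 2.55 FPKM. At 22 °C the median member stood at 0.79, 0.74 and 1.53 FPKM in replicates 1 to 3. The 27 °C libraries had it at 12.2, 11.4 and 11.4 FPKM, the 32 °C libraries at 12.7, 12.8 and 9.40 FPKM. Each warmer library thus held the median member several times above each library at 22 °C. Much of this gap is set by the choice, which asked for a minimum difference between the means at 27 and 22 °C. It also limited the difference between 32 and 27 °C and kept the largest differences between 27 and 22 °C. Between single libraries it asked only that every warmer value lie above every 22 °C value. Between 196 and 200 members reached 1 FPKM in each warmer library, and 94, 93 and 116 did so in replicates 1 to 3 at 22 °C. A warmer mean, the mean over the 6 libraries at 27 and 32 °C, of 5 to 10 FPKM was found in 69 members and one of 10 to 50 FPKM in 83.

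**Figure D1:**
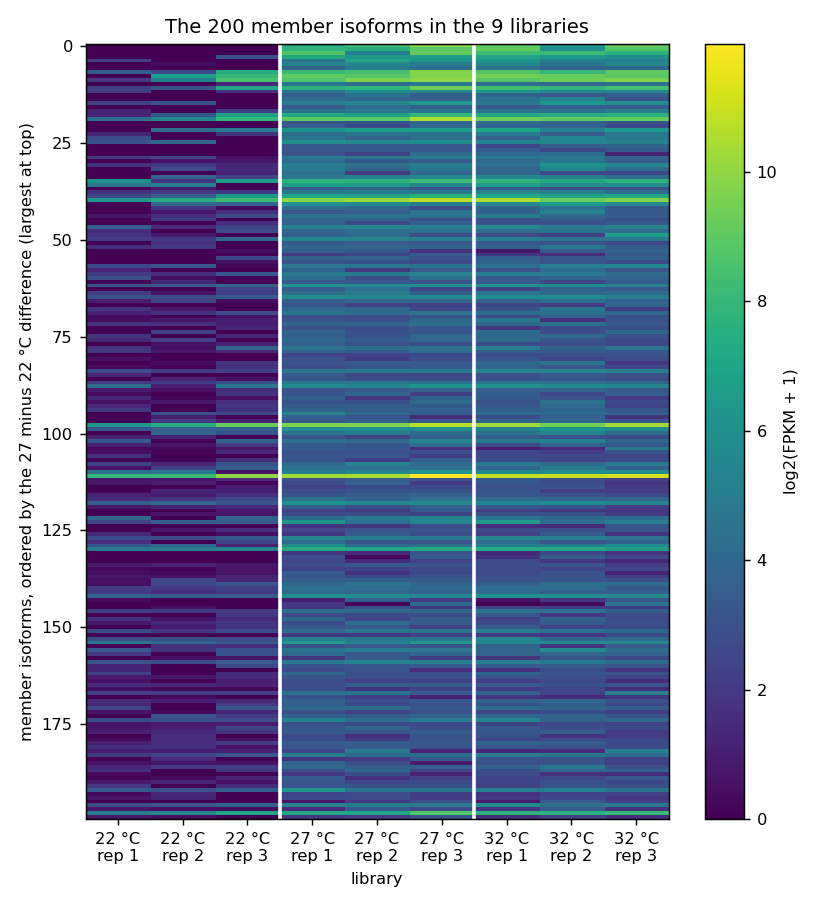
The 200 members (rows, the largest difference between 27 and 22 °C at the top) in the 9 libraries (columns), coloured by log2(FPKM + 1). The 3 columns at 22 °C are darkest, a few abundant members form bright rows, and replicate 3 at 22 °C is the brightest of its group in several of those.

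The summed level of the members showed how unevenly they share their abundance. Of summed FPKM they held 0.103% ± 0.0868 in the coolest group, 0.655% ± 0.244 in the 27 °C group and 0.619% ± 0.0341 in the warmest (SD, n = 3 in all groups). In FPKM the 3 sums were 978, 1366 and 4076 for the coolest group, 9942, 10049 and 18668 for the 27 °C group, and 12719, 9944 and 12029 for the warmest. Replicate 3 stood highest both at 22 and at 27 °C, and the groups at 27 and 32 °C overlapped. The 10 members with the highest warmer mean carried between 43.2 and 75.2% of the sum, depending on the library. Without those 10, the sums were 556, 553 and 1011 FPKM in the coolest group, 4628, 3906 and 5052 FPKM in the 27 °C group, and 4566, 4379 and 3875 FPKM in the warmest. The spread within a temperature was smaller in the remaining 190, although replicate 3 was still highest at 22 and at 27 °C.

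On the log2(FPKM + 1) scale the median difference between 27 and 22 °C was 2.36 over the members, with quartiles of 2.08 and 2.73 and a range from 1.89 to 8.55. Over all isoforms tested the median of that difference was 0.0856. In 39 members it was above 3 and in 13 above 4. For the 97 members above 0 in all 9 libraries, a ratio of group means in FPKM can be given. It had a median of 6.39 from 22 to 27 °C, with a range from 3.01 to 28.4, and a median of 5.59 from 22 to 32 °C, with a range from 2.91 to 38.4.

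About as many members had a 0 at 22 °C as had none. A total of 19 members were listed at 0 in all 3 libraries at 22 °C, 32 in exactly 2 and 52 in exactly 1. The table holds estimates without counts, so a listed 0 can come from an estimate that failed or from a missing transcript, and no fold is given for these. The 19 listed at 0 throughout 22 °C had median 27 and 32 °C means of 6.45 and 7.66 FPKM, and the 97 above 0 throughout had 18.7 and 18.1 FPKM. Their 6 warmer values also lay further apart: the highest was 4.47 times the lowest in the median of the 19, and 2.39 times in the median of the 97.

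Isoform_13608 had the largest difference between 27 and 22 °C of the 200. Every 22 °C library listed it at 0. Its 27 °C replicates had 169.74, 334.88 and 911.58 FPKM, its 32 °C replicates 461.06, 74.81 and 541.48 FPKM. Its groups at 27 and 32 °C overlapped widely, with the highest value in replicate 3 at 27 °C and the lowest in replicate 2 at 32 °C. Its mean at 32 °C lay 0.49 below that at 27 °C on the log2(FPKM + 1) scale, close to the limit of the rule, and the 95% interval of that difference ran from -2.40 to 1.42.

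The members in the next 2 places were likewise listed at 0 throughout 22 °C. The first of them had 27 °C values of 234.53, 189.56 and 473.33 FPKM, and 32 °C values of 557.91, 57.46 and 437.23 FPKM. The other had 27 °C values of 414.74, 33.69 and 543.58 FPKM, and 32 °C values of 290.63, 298.24 and 196.61 FPKM. As with isoform_13608, replicate 2 at 32 °C was the lowest warmer library for the former, whereas for the latter it was replicate 2 at 27 °C. The next 2 members at 0 throughout 22 °C were far less abundant, with 27 °C means of 15.7 ± 7.45 and 10.7 ± 4.39 FPKM, and 32 °C means of 11.7 ± 2.33 and 13.3 ± 5.32 FPKM (SD, n = 3 for all means).

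Isoform_15730 had the largest difference among the members above 0 in all 9 libraries. Its 22 °C replicates had 10.7, 5.07 and 161.76 FPKM. Its 27 °C replicates had 279.57, 344.82 and 833.29 FPKM, its 32 °C replicates 433.67, 249.75 and 530.64 FPKM. Replicate 3 was far above the other libraries at 22 °C and was also the highest at 27 °C. The group means of isoform_15730 were 59.2 ± 88.9, 486 ± 303 and 405 ± 143 FPKM (SD, n = 3 for all means), a ratio of 8.21 from 22 to 27 °C and of 6.84 from 22 to 32 °C. The SD at 22 °C exceeded the mean.

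The most abundant member, by its warmer mean, had 22 °C values of 234.89, 276.46 and 1003.34 FPKM. Its 27 °C values were 1272.03, 1395.05 and 4014.63 FPKM, its 32 °C values 1813.18, 1917.52 and 2257.74 FPKM. Replicate 3 at 22 °C came close to the lowest libraries at 27 °C, so the groups were only narrowly apart. The second most abundant had 76.17, 164.01 and 297.93 FPKM in the coolest group, 921.84, 1151.85 and 1777.55 FPKM in the 27 °C group, and 1503.05, 626.89 and 842.07 FPKM in the warmest. The next had 74.32, 172.19 and 590.99 FPKM in the coolest group, 812.23, 777.39 and 1681.9 FPKM in the 27 °C group, and 1212.76, 696.42 and 1325.42 FPKM in the warmest. These 3 were also the members with the highest means at 22 °C. In the 2 that followed, too, replicate 3 was the highest at 22 °C, at 244.71 FPKM against 19.38 and 44.91, and at 364.45 FPKM against 3.02 and 34.8.

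**Figure D2:**
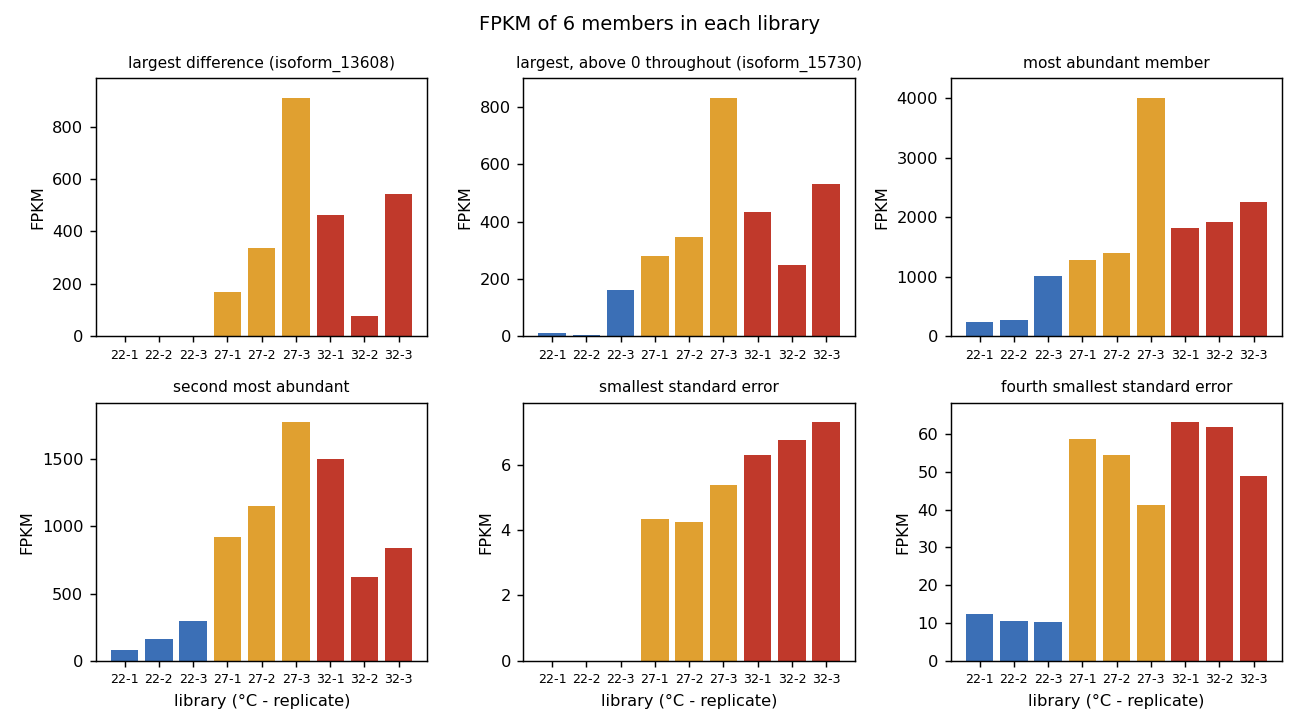
FPKM of 6 members (panels, each with its own linear axis from 0) in each library (bars, blue 22 °C, orange 27 °C, red 32 °C). Replicate 3 is the highest bar of its group at 22 and 27 °C in isoform_15730 and in both of the most abundant members, while both members with small standard errors have bars of more even height within each temperature.

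Other members were picked after their values were seen, as those with the smallest standard errors in the fit of 9 libraries. Where an isoform is listed at 0 throughout 22 °C, those zeros add no spread to that error. The first, at 0 throughout 22 °C, had 27 °C values of 4.33, 4.25 and 5.38 FPKM, and 32 °C values of 6.29, 6.74 and 7.3 FPKM. Its 3 values at 32 °C lay above all those at 27 °C. The second had 0.55, 0.74 and 0.95 FPKM in the coolest group, 6.7, 5.45 and 5.55 FPKM in the 27 °C group, and 4.41, 4.9 and 3.83 FPKM in the warmest, here with the 32 °C values below those at 27 °C. The fourth had 12.46, 10.38 and 10.37 FPKM in the coolest group, 58.74, 54.4 and 41.27 FPKM in the 27 °C group, and 63.15, 61.86 and 48.98 FPKM in the warmest. Its ratio of group means was 4.65 from 22 to 27 °C and 5.24 from 22 to 32 °C, and its warmer groups overlapped.

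The word level holds for the estimates better than for the measurement behind them. The rule kept isoforms with a difference between 32 and 27 °C of less than 0.5, in either direction, on the log2(FPKM + 1) scale. In 107 members it was smaller than 0.25 either way, in 131 it was negative and in 69 positive, with a median of -0.13. A high mean at 27 °C raises the difference that chose the members and lowers this one, so the balance of signs is part of the choice. limma's 95% interval of this difference, from a fit of all isoforms tested over the 9 libraries, had a median half-width of 1.15, with a range from 0.374 to 4.12. It stayed within 1 of 0 in 39 members and within 0.5 of 0 in 0. This interval also takes in the spread at 22 °C: the member with the widest ran only from 450 to 834 FPKM in the warmer libraries, and its half-width was 4.12, and 0.711 when the 22 °C libraries were left out of the fit. In that fit of the 6 warmer libraries the median half-width was 0.927, and the interval stayed within 1 of 0 in 73 members and within 0.5 of 0 in 0. For the other 127 members, a change of 2-fold or more between 27 and 32 °C lies inside the interval on this scale.

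**Figure D3:**
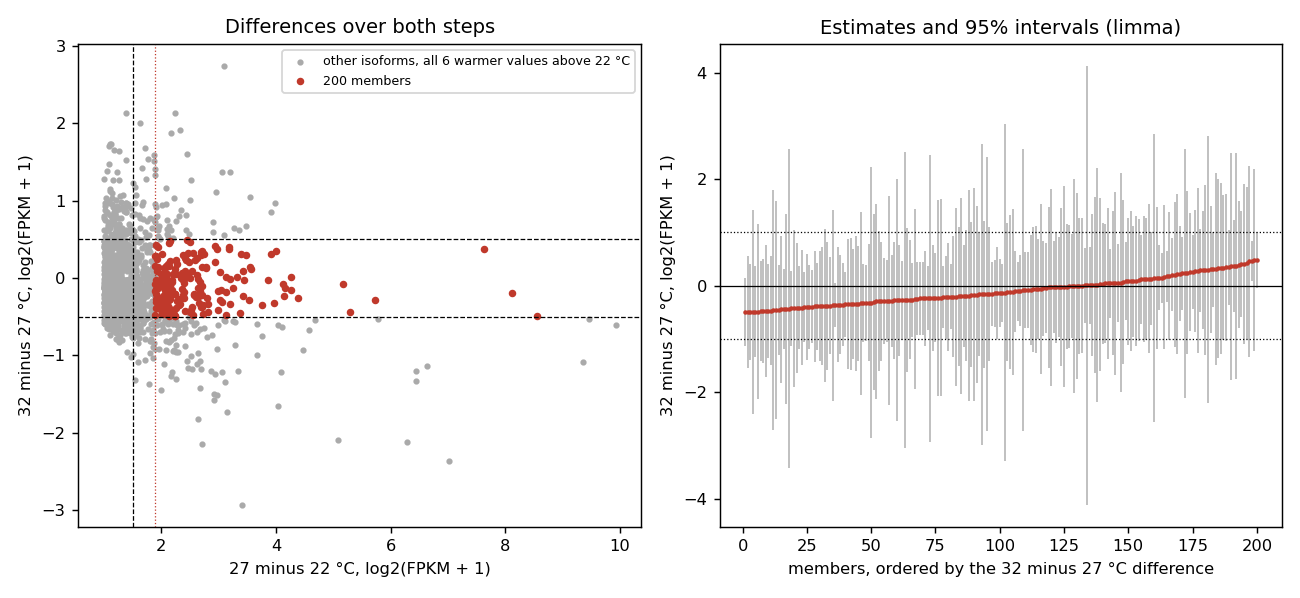
Left, the difference between 32 and 27 °C against that between 27 and 22 °C, both in log2(FPKM + 1). Grey points are other isoforms with all warmer values above those at 22 °C and a difference between 27 and 22 °C of at least 1. The 200 members are red. Dashed lines are the thresholds of the rule and the dotted line the smallest difference kept, 1.89. Right, the difference between 32 and 27 °C in each member (red) with limma's 95% interval from the fit of 9 libraries (grey) and dotted lines at 1 and -1, which most intervals cross.

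Counts of calls describe the same libraries that chose the members, and nothing is read from them. In limma at a Benjamini-Hochberg adjusted p of 0.05, 64 of the 200 were called higher at 27 than at 22 °C, where 0.271% of all isoforms tested were called higher. At 32 against 22 °C 80 of the 200 were called higher, with a background of 0.908%. Those called in both numbered 63, and 119 of the 200 were called in neither. By the rule, every warmer value lay above every 22 °C value in all 200, as in 7.20% of the isoforms tested. Between 32 and 27 °C limma called 0 of the 200 in either direction, with a background of 0.120%, and 1 of them at an unadjusted p of 0.05, which 9.04% of the isoforms tested reached. Both comparisons with 22 °C share the 22 °C libraries.

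At 27 against 22 °C the calls took in 10 of the 19 members listed at 0 throughout 22 °C, 20 of the 84 at 0 in 1 or 2 libraries there and 34 of the 97 above 0 throughout. Of the 16 members averaging 100 FPKM or more over the 9 libraries, 4 were called. The counts with 1 library left out come from fits with fewer libraries to estimate the spread. At 27 against 22 °C the count was 11, 15 and 51 with the 22 °C replicates 1, 2 and 3 left out one by one. Leaving out the 27 °C replicates 1, 2 and 3 in turn gave 19, 22 and 17. At 32 against 22 °C the count was 26, 31 and 63 with the 22 °C replicates 1, 2 and 3 left out in turn, and 38, 31 and 48 with those at 32 °C left out. The share of all isoforms called was not computed for these classes or smaller fits, so nothing is read from their counts.

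A measure that the choice did not use is the value in a library left out of it. The rule was applied to 8 libraries, the 200 isoforms with the largest difference were kept, and these were then read in the ninth. Of isoforms chosen without replicate 1, 2 or 3 at 22 °C, 146, 145 and 130 of 200 had a value in that library below all 6 warmer values, or 73.0, 72.5 and 65.0%. Among all isoforms tested the shares were 23.1, 20.7 and 17.5%. Of those chosen without replicate 1, 2 or 3 at 27 °C, 160, 172 and 170 of 200 had a value in that library above every value at 22 °C, against 34.3, 33.4 and 31.6% of all isoforms tested. Without replicate 1, 2 or 3 at 32 °C the numbers were 171, 164 and 173, against 31.9, 37.5 and 33.4%. The libraries kept for the choice also enter these comparisons, so only 1 side of each is independent of it. The other side was chosen to lie apart, unlike in all isoforms tested, so a higher share is partly built in.

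The left-out library showed a smaller difference than those used to choose in all 9 cases. The isoforms were kept for a large difference in the libraries used, so a smaller one in the library left out is built in. The 200 kept also changed with the library left out, and shared 127 to 150 isoforms with the members. Without replicate 3 at 22 °C the median difference from the 27 °C mean was 2.85 in the libraries used and 1.34 in the one left out, on the log2(FPKM + 1) scale. For replicates 1 and 2 at 22 °C it was 2.5 in the libraries used and 2.01 and 1.97 in the one left out. For the libraries at 27 and 32 °C, read against the mean at 22 °C, it was 2.36 to 2.5 in the other libraries of the same temperature and 1.94 to 2.35 in the one left out. Among the 22 °C libraries, replicate 3 was thus the one in which isoforms chosen without it were least low. Without this library 749 isoforms met the rule in place of 388, and 197 of the 200 members were among them. Without any other single library 415 to 530 did. Leaving out any library makes the condition on overlap easier to meet, so a number above 388 is partly built in. The lowest of these, 415, was found without replicate 1 at 32 °C and took in 156 of the 200 members.

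**Figure D4:**
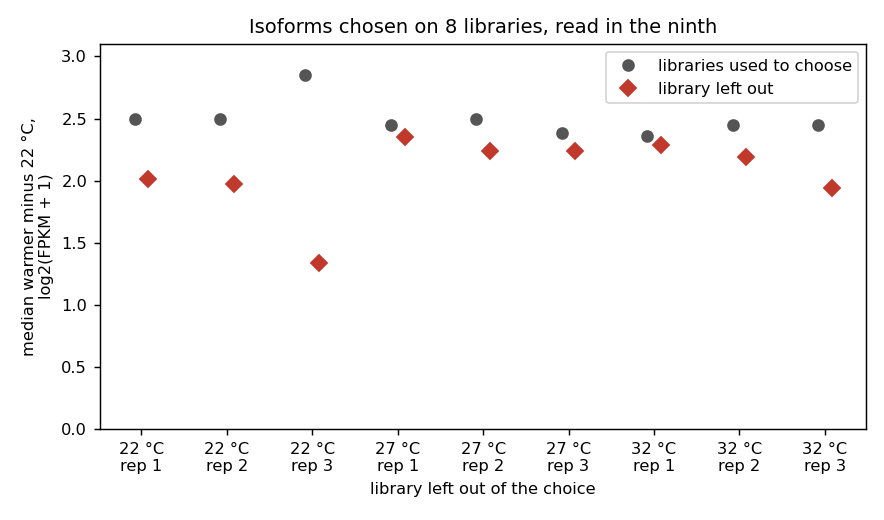
Median difference between warmer and 22 °C levels, in log2(FPKM + 1), for the 200 isoforms chosen on 8 libraries, in the libraries used for the choice (grey circles) and in the library left out (red diamonds), by the library left out. A left-out 22 °C library is read against the 27 °C mean and a left-out warmer library against the 22 °C mean; the gap is widest for replicate 3 at 22 °C, 2.85 against 1.34.

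The members did not vary as one block within a temperature. After the mean of its temperature was taken from each log2(FPKM + 1) value, pairs of members correlated over the 9 libraries with a median of 0.0679, and 0.683% of pairs above 0.9. These points share libraries and carry 6 degrees of freedom, so the values are a description. The strongest shared pattern of the members' deviations, each scaled to the same spread, held 29.4% of their variation. No such values were computed for all isoforms tested. Among the libraries at 22 °C, replicate 3 was the highest in 94 members, replicate 1 in 58 and replicate 2 in 48. Over all isoforms tested replicate 3 was the highest in 39.8%, against 47.0% of the members. Replicate 3 at 32 °C was the lowest of the 6 warmer libraries in 67 members, or 33.5%, against 14.4% of all isoforms tested. It was the highest in 15, or 7.50%, against 16.0% of all isoforms tested.

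The abundant members were more alike. Of the 16 averaging 100 FPKM or more, 12 had replicate 3 highest both at 22 and at 27 °C, as did 9.64% of the 1588 tested isoforms of that abundance. The within-temperature pattern of the most abundant member was matched, at a correlation of 0.9 or more over the 9 libraries, by 20 of those 1588 isoforms, itself included. Only 4 of the 20 were members. The other 16 averaged between 106 and 17760 FPKM and had differences between 27 and 22 °C from 0.0442 to 3.60, with a median of 1.20, on the log2(FPKM + 1) scale. Of the 16, 5 reached a difference of 1.5, and in 1 of the 16 all warmer values lay above those at 22 °C.

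The most abundant of these 16 held the pattern it was chosen for at a far higher level. It had 4575.03, 6038.02 and 16715.23 FPKM in the coolest group, 15726.69, 16520.33 and 33960.79 FPKM in the 27 °C group, and 21148.49, 19471.99 and 25666.05 FPKM in the warmest. Its replicate 3 at 22 °C lay above both lower libraries at 27 °C, so its groups overlapped, and its difference of 1.42 between 27 and 22 °C was also below the 1.5 of the rule; that between 32 and 27 °C was 0.09. Replicate 3 was 3.65 times replicate 1 at 22 °C in this isoform and 4.27 times in the most abundant member. In 2 further isoforms of the 16, replicate 3 at 22 °C was 22.5 and 26.0 times replicate 1, and in 1 of the 4 members 37.2 times. Whether these isoforms come from the same genes or the same cells was not tested, since none has a name.

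**Figure D5:**
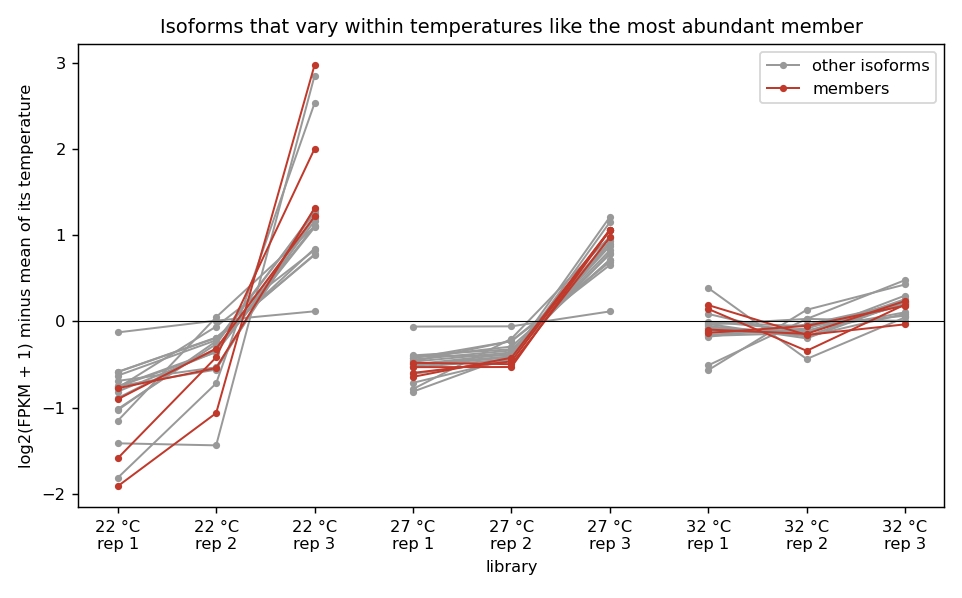
Deviation of log2(FPKM + 1) from the mean of its temperature, in each library, for the 20 isoforms of 100 FPKM or more that correlated at 0.9 or above with the most abundant member: 4 members (red) and 16 others (grey). Replicate 3 lies above the other libraries at 22 and 27 °C in all 20, and the spread is smaller at 32 °C. The 20 were chosen for their match to 1 of them, so this shared shape is built in.

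The limits of the rule cut through a continuous spread of values. The last member inside the limit of 200 had a difference of 1.888 between 27 and 22 °C, and the first isoform beyond it 1.887. That next isoform had 2.27, 3.64 and 3.9 FPKM in the coolest group, 18.06, 13.43 and 12.69 FPKM in the 27 °C group, and 7.57, 16.23 and 15.7 FPKM in the warmest. The last isoform to meet a difference of 1.5 stood at 1.500 and the first to miss it at 1.499. For the difference between 32 and 27 °C, members reached from -0.490 to 0.486, and the nearest isoforms outside that met the other conditions had -0.504 and 0.506. In 11 members the lowest warmer value exceeded the highest 22 °C value by less than 0.1 on the log2(FPKM + 1) scale. The narrowest had 0.86, 0.86 and 1.22 FPKM in the coolest group, 4.87, 31.9 and 1.24 FPKM in the 27 °C group, and 1.51, 1.8 and 34.12 FPKM in the warmest, with 1 high value in each warmer group.

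Neighbouring patterns held fewer or more isoforms. Of 620 isoforms with a difference of at least 1.5 and all warmer values above those at 22 °C, 388 were level by the rule, 78 stood at least 0.5 higher again at 32 °C and 154 at least 0.5 lower. Isoforms at 0 throughout 22 °C made up 9.50% of the members and 8.505% of the 388. Their share was 23.1% of those that stood higher again and 12.3% of those that stood lower, sets without the limit of 200. The mirrored rule, with all warmer values below those at 22 °C, was met by 443 isoforms, 64 of them at 0 in all 6 warmer libraries. Isoforms averaging 100 FPKM or more made up 8.0% of the members and 0.532% of the 188 that met the rule beyond the limit of 200. They made up 4.06% of the mirrored set, which had no such limit, 4.38% of the 388 and 1.57% of all isoforms tested. These sets were all chosen on the same values, so their differences are not tested.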

How the data were processed

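The deposited values are FPKM per numbered isoform, with 1 column per library, per the file headers. Bowtie2 and RSEM are named per the submitters' processing notes, without versions; for the settings, transcript set and genome build, the sources used here give no information. RSEM can divide reads between similar isoforms, so a level can shift between near-identical entries. Columns were matched to libraries by the library name, and 0 columns stayed unused. Read depth is unknown, so no counting interval was computed.

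The rule was applied to log2(FPKM + 1), and limma 3.58.1 in R 4.3.3 was fitted to all 101114 isoforms with at least 1 FPKM in 3 libraries, with 9 libraries, a variance trend, 2-sided tests and Benjamini-Hochberg adjustment over all isoforms. The fit was tested on simulated data. Matches to the deviations of the most abundant member were sought among isoforms averaging 100 FPKM or more. Correlations between pairs of members took in all members, without this limit. The members, lists and settings were chosen with earlier results of these data known; the planned lists of named genes could not be filled. The 2 identifiers are the member with the largest difference between 27 and 22 °C and the one with the largest among members above 0 in every library.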

Additional observations from a re-analysis of the deposited data

How the results depend on the processing

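On rescaling to TPM, median-of-ratios scaling and quantile normalization, all 200 members kept a higher mean at 27 than at 22 °C. All warmer values stayed above those at 22 °C in 200, 188 and 193 members. The members were chosen for no overlap and a difference of at least 1.89, so both counts are largely built in. The share of all isoforms without overlap was not computed under these scalings, so nothing is read from either count. The median difference over all isoforms tested went from 0.0856 to 0.165, -0.0311 and 0.0309, and over the members from 2.36 to 2.42, 2.24 and 2.36. The number meeting the rule was 513, 294 and 337 under these scalings. It was 1026 with a pseudocount of 0.1 and 1118 with 0.01, 1175 and 170 with a minimum difference of 1 or 2, 217 with a limit of 0.25 on the upper step and 846 without the condition on overlap. With 1 library left out it ran from 415 to 749. The members called in limma numbered 38 (27 against 22 °C) and 46 (32 against 22 °C) with no filter, and 32 for 32 against 22 °C when only those libraries were fitted. With 1 library left out they ran from 11 to 64 and from 26 to 63. For 32 against 27 °C the count was 0 in every setting tried. The share of all isoforms called was not computed in these other settings, so nothing is read from the counts. With the replicate number as a block 473 isoforms met the rule, and the calls were 13, 30 and 0. The numbers tie the libraries to no shared tank or day. Deviations of same-numbered libraries correlated at -0.019 to 0.0525, and those of differently numbered ones at -0.0464 to 0.0416. The same number was the best match in 7 of 18 comparisons, each with 3 libraries to choose from. Depth limits cannot be given without counts.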

Other observations

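In 3 isoforms with all warmer values above those at 22 °C, the difference between 27 and 22 °C was larger than in any member, and all 3 were outside the rule because their mean at 32 °C was lower by 0.5 or more. All 3 were listed at 0 throughout 22 °C. The third, which stood at 465.69, 567.19 and 1072.0 FPKM at 27 °C, had 817.2, 88.56 and 406.85 FPKM at 32 °C. In each of the 3, as in the first and second member by size of difference, replicate 2 was the lowest library at 32 °C. Without replicate 2 at 32 °C 458 isoforms met the rule.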
